A study of Mus musculus with 6 samples.

Results

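The genes described here are 10 growth factors and related secreted proteins that macrophages are known to supply during tissue repair: Vegfa, Vegfb, Hgf, Pdgfa, Pdgfb, Igf1, Hbegf, Areg, Grn and Ecm1. They were chosen as a named set, with earlier results of these data known, and are 10 of the 56092 gene symbols in the count table. RNA of RAW264.7 cells, a mouse macrophage line, was sequenced in 2 groups of 3 libraries. Control cells (shNC) stably carried the control vector, which the labels call empty and for which the study's methods give a negative control shRNA, and knockdown cells (shTrem2) carried a lentiviral vector with an shRNA against Trem2, a lipid-sensing receptor of phagocytes. Both groups were transduced with a vector that also carries GFP, were selected with puromycin, were polarized with IL-4 (20 ng/mL, 24 hours) and then kept for 24 hours with debris of TCMK-1 cells, a mouse renal tubular line. The comparison asks how Trem2 knockdown changes such macrophages after contact with debris. There was 1 knockdown group, the shRNA behind it is not named for these libraries, and no library lacked IL-4 or debris, so a difference between the transduced lines and an effect of Trem2 cannot be told apart. Nothing in the labels says that the replicates came from separate cultures, so p-values measure the spread between these libraries, which may be technical.

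Growth factors of repair act on neighbouring cells through receptor kinases. VEGF-A drives growth of endothelial cells through Kdr and also binds Flt1, while PDGF-A and PDGF-B act on fibroblasts and pericytes through Pdgfra and Pdgfrb. IGF-1 signals through Igf1r, HGF through Met, and HB-EGF and amphiregulin through Egfr, and each of these pathways is known to promote survival or proliferation of tubular epithelium. HB-EGF and amphiregulin are made as membrane proteins and released by ADAM proteases, HGF is secreted as an inactive precursor that serine proteases cleave, and IGF-1 is held by binding proteins. Progranulin, the product of Grn, is both secreted and delivered to lysosomes. Ecm1 encodes a secreted glycoprotein of the extracellular matrix.

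For several of these factors, the gene makes messages with different coding parts, and the results below describe these forms separately. An exon that sets the main transcripts apart is shown for each of 3 genes from GENCODE M21 (mouse build GRCm38), with the differing coding bases in capitals and 12 flanking bases of the same transcript in lower case. In Vegfa-202 the exon at chr17:46020991-46021122 (132 nt, minus strand), which encodes much of the heparin-binding region, is present, and Vegfa-201 lacks it. The annotated coding sequence of Vegfa-202 (1104 nt) also starts upstream of that of Vegfa-201 (438 nt), and this difference, of which 75 nt at chr17:46031816-46031890 lie outside the exons of Vegfa-201, is not shown. Pdgfa-201 holds a 53-nt coding stretch at chr5:138978638-138978690 (minus strand) for the basic tail of the long PDGF-A chain, which is absent from Pdgfa-202. Igf1-203 holds a 52-nt exon at chr10:87915298-87915349 (plus strand) that changes the E peptide of the IGF-1 precursor and is absent from Igf1-202. The submitters' notes name GRCm39, and no coordinates were converted between builds.
Vegfa-202: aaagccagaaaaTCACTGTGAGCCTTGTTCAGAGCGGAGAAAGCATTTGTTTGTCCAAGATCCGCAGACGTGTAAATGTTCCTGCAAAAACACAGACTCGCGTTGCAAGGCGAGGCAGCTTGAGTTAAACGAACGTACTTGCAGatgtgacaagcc
Pdgfa-201: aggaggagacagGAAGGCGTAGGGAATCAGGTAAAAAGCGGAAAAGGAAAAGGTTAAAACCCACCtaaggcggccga
Igf1-203: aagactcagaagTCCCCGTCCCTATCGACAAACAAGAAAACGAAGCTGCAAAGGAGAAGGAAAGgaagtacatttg

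The libraries held between 15876061 and 18088372 counts of named genes in shNC and between 19358113 and 19655158 in shTrem2, and replicates of a group correlated with r between 0.989 and 0.991 across genes. Levels are given as CPM, counts scaled to the total of named genes, for comparisons between groups, and as the deposited FPKM, which accounts for transcript length, for comparisons between genes. The targeted gene, Trem2, was at 116, 124 and 145 CPM in shNC and at 63.8, 62.5 and 79.2 CPM in shTrem2. The groups did not overlap, and the knockdown gave a log2 fold change of -0.87 (adjusted p = 3.39e-06, edgeR) on counts and -2.06 on log2(FPKM + 1) with limma. All 10 macrophage markers passed the filter on low counts, 8 higher and 2 lower in shTrem2 at an adjusted p under 0.05, and their summed level was 5741 to 6705 CPM in shNC and 10695 to 12058 CPM in shTrem2, with Lyz2 holding the most counts. Of 14 renal tubular markers, 9 were at 0 in all 6 libraries. Aqp1, the only one of them tested, had 5 to 12 counts in shNC and 38 to 50 in shTrem2 (log2 fold change 2.30), and the summed level of the list was 0.885 to 1.45 CPM and 2.16 to 2.79 CPM. Fibroblast markers summed to at most 1.07 CPM, with 5 of 7 at 0, and endothelial markers to 8.94 CPM at most, with 1 of 6 at 0. Only 1 fibroblast marker and 2 endothelial markers had enough counts to be tested, and none of them was called. Whether these shifts in marker levels bear on the growth factors was not tested. In bulk RNA, fewer cells of a kind and less RNA per cell cannot be told apart.

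Of the 10 growth factors, 8 had enough counts to be tested and 3 were called at an adjusted p under 0.05 and a fold change over 1.5. All 3 were lower in shTrem2: Hbegf, Igf1 and Pdgfb. Over all 13528 tested genes, 21.8% were called and 12.4% were called lower. Pdgfa and Ecm1 were also lower at an adjusted p under 0.05 but by less than 1.5-fold, which makes 5 of the 8 past the p criterion alone, where all tested genes gave 57.4% in either direction and 28.6% lower. Vegfa, Vegfb and Grn did not pass, and Hgf and Areg were not detected. The 3 values of each group did not overlap for 5 of the 8, or 62.5%, close to the 63.5% of all tested genes.

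**Figure D1:**
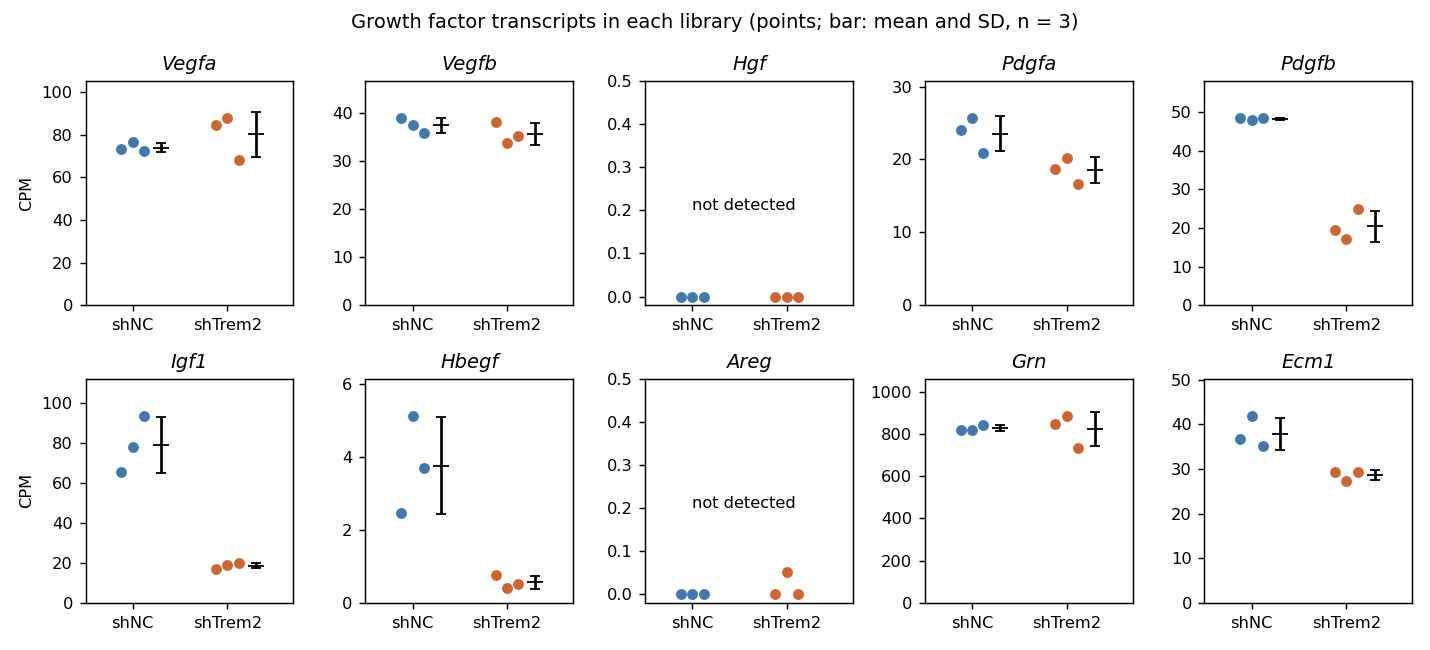
Level of each growth factor in every library, in CPM on a linear axis from 0, with points for the 3 libraries of each group and a bar for the mean and SD of the detected genes. The groups are separate for Igf1, Pdgfb, Hbegf, Pdgfa and Ecm1, overlap for Vegfa, Vegfb and Grn, and lie at or near 0 for Hgf and Areg.

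**Figure D2:**
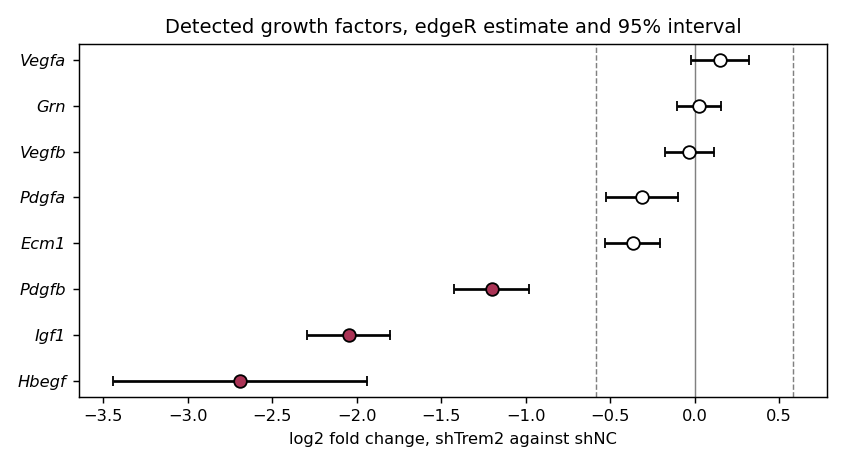
edgeR log2 fold change of the 8 tested growth factors, shTrem2 against shNC, with 95% intervals; filled points were called and dashed lines mark a 1.5-fold change. Hbegf, Igf1 and Pdgfb lie wholly beyond the lower line, and the intervals of Vegfa, Grn and Vegfb include 0.

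Vegfa, the main endothelial growth factor, did not differ detectably as a whole, while its transcripts differed in opposite directions. The summed count was 73.2, 76.5 and 72.4 CPM in shNC and 84.6, 87.7 and 68.2 CPM in shTrem2. Replicate 3 of shTrem2 was the lowest of the 6 libraries and the other shTrem2 replicates were the highest, so the groups overlapped. The log2 fold change was 0.15 (95% interval -0.02 to 0.32, adjusted p = 0.126 from edgeR), and it rose to 0.25 (adjusted p = 0.00176) once shTrem2 replicate 3 was left out. Over all alternatives its adjusted p lay between 0.00176 and 0.412. The FPKM pointed the other way, at 43.1 ± 3.19 in shNC and 36.2 ± 4.48 in shTrem2 (SD, n = 3), and limma on log2(FPKM + 1) gave -0.25 (adjusted p = 0.0731).

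The count table gives transcripts without names, so the Vegfa values were matched to GENCODE transcripts through the annotated lengths. The 10 values were set against choices from 13 annotated transcripts, kept in annotation order. The match used gave back the deposited FPKM to within 0.0125%, and the next best choice to within 4.91%. Swaps between values were not compared, so the names of transcripts close in length, such as Vegfa-205 and Vegfa-210, are less certain. Vegfa-201, the coding transcript without the heparin-binding exon shown above, was at 22.2, 20.3 and 19.3 CPM in shNC and at 32.6, 34.7 and 25.2 CPM in shTrem2. Every shTrem2 library was above every shNC library, a log2 ratio of means of 0.58. Vegfa-202, which holds that exon, was at 43.8 ± 2.25 and 44.5 ± 6.37 CPM (SD, n = 3), and its groups overlapped. The retained-intron transcripts with the most counts were lower. Vegfa-210, from 46018479 to 46024864 on chromosome 17, went from 5.27 ± 1.02 to 2.40 ± 0.398 CPM, and Vegfa-205, from 46018606 to 46024881, from 3.09 ± 0.901 to 1.34 ± 0.228 CPM (SD, n = 3), with no overlap for either. The other retained-intron transcripts each averaged under 1 CPM in both groups, and of these Vegfa-209 was lower without overlap while the groups overlapped for Vegfa-206 and Vegfa-208. These non-coding transcripts are short, at 852 and 874 nt against 2765 nt for Vegfa-201, so they weigh more per length: transcripts not annotated as coding held 12.3% of Vegfa counts but 47.7% of its FPKM in shNC, and 5.20% and 25.0% in shTrem2. Their FPKM was 20.7 ± 3.05 in shNC and 9.03 ± 1.45 in shTrem2, while that of the coding transcripts was 22.5 ± 0.273 and 27.2 ± 3.57 (SD, n = 3). Counting the coding transcripts alone, a choice made after these values were seen, gave a log2 fold change of 0.26 (adjusted p = 0.0155 from edgeR). Single transcripts are described without a test.

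**Figure D3:**
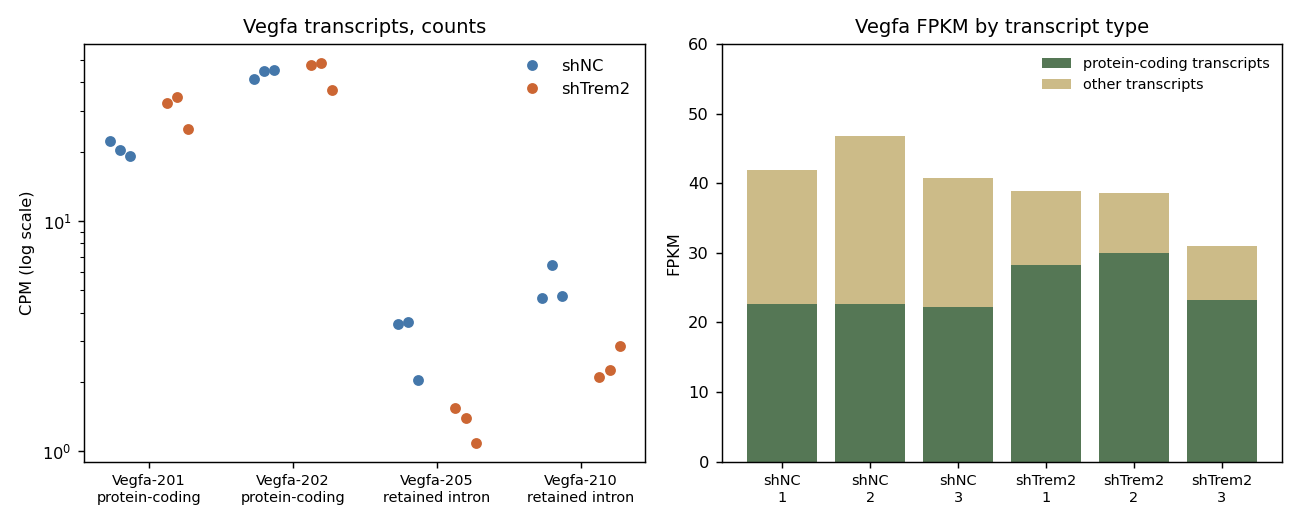
Left, the 4 most abundant Vegfa transcripts in each library in CPM on a log axis; right, Vegfa FPKM per library split into protein-coding and other transcripts. Vegfa-201 is higher and both retained-intron transcripts are lower in every shTrem2 library, and the non-coding share of FPKM is 47.7% in shNC and 25.0% in shTrem2.

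Vegfb, a ligand of Flt1, was at 38.9, 37.6 and 35.8 CPM in shNC and at 38.2, 33.7 and 35.3 CPM in shTrem2. The values were intermixed, with a log2 fold change of -0.03 (95% interval -0.18 to 0.11, adjusted p = 0.714 from edgeR), and both coding transcripts had overlapping groups. Among 13 other ligands and receptors of the VEGF and PDGF families, 5 were tested, 1 was called higher and 1 lower. Their median log2 fold change was 0.55, against -2.84e-05 over all genes tested. This median would be lower without Vegfc, the highest of the 5. Of the rest, Nrp1 and Pdgfrb were positive (0.55 and 0.63), and Flt1 and Nrp2 were negative (-1.51 and -0.43). Of all tested genes, 9.46% were called higher. Flt1, the receptor shared by VEGF-A and VEGF-B, fell from 10.3 ± 1.46 to 3.52 ± 0.247 CPM (SD, n = 3; log2 fold change -1.51, adjusted p = 2.09e-06). The neuropilins, co-receptors of VEGF, passed the p criterion in opposite directions and below 1.5-fold, Nrp1 at 0.55 and the far more counted Nrp2 at -0.43, from 1089 ± 12.7 to 789.8 ± 3.06 CPM (SD, n = 3). Vegfc, the lymphatic member of the family, had 3 counts in all over shNC and 83 over shTrem2, a ratio of 24.5 after scaling to the named counts (95% interval 8.09 to 121, counting error only). Vegfc passed the count filter only through shTrem2. Kdr had 4 counts or fewer in every library.

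Of the PDGF ligands, Pdgfb was the one called. It was at 48.4, 48.0 and 48.4 CPM in shNC and at 19.4, 17.0 and 24.9 CPM in shTrem2. The shNC libraries were almost equal and every shTrem2 library lay far below them, with a log2 fold change of -1.20 (standard error 0.104, adjusted p = 4.18e-07 from edgeR). Pdgfb-201, the main coding transcript, made up 93.6% and 96.9% of the gene's counts and went from 45.2 ± 1.21 to 19.8 ± 3.70 CPM (SD, n = 3). The retained-intron transcript Pdgfb-202 was lower as well, at 2.71 ± 1.16 and 0.622 ± 0.426 CPM (SD, n = 3).

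Pdgfa differed less. The gene was at 24.1, 25.6 and 20.9 CPM in shNC and at 18.7, 20.2 and 16.6 CPM in shTrem2. The lowest shNC library was just above the highest shTrem2 library, and the log2 fold change of -0.31 (standard error 0.098, adjusted p = 0.0154 from edgeR) did not pass without shNC replicate 2 (-0.25, adjusted p = 0.0771). Both main forms were lower: Pdgfa-202, without the basic tail, went from 15.9 ± 1.94 to 13.1 ± 0.256 CPM, and Pdgfa-201, with the tail, from 6.48 ± 0.754 to 4.42 ± 1.44 CPM (SD, n = 3), and the groups overlapped for neither. The order of transcripts used rebuilt the FPKM within 0.0506% and the next best within 0.766%. Of the receptors, Pdgfra had no count in any library, and Pdgfrb had 4 to 21 counts per library (log2 fold change 0.63, adjusted p = 0.294 from edgeR).

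Igf1 showed the clearest fall among the well-expressed factors. Its levels were 65.4, 78.1 and 93.5 CPM in shNC and 17.1, 19.0 and 20.0 CPM in shTrem2. The shNC libraries were widely spread, yet the lowest of them was still over 3 times the highest shTrem2 library. Igf1 had a log2 fold change of -2.05 (standard error 0.114, 95% interval -2.29 to -1.80, adjusted p = 7.34e-09 from edgeR), a 4.13-fold difference. Igf1-202, from 87859068 to 87937042 on chromosome 10, held 83.7% of the gene's counts in shNC and 81.5% in shTrem2, and went from 66.5 ± 14.6 to 15.3 ± 1.43 CPM (SD, n = 3). Igf1-203, with the alternative E-peptide exon shown above, held 6.62% and 6.87% and went from 4.95 ± 1.44 to 1.29 ± 0.366 CPM (SD, n = 3). Both precursor forms were lower in shTrem2, and their shares of the gene differed little. The transcripts were matched within 0.0691%, against 0.850% for the next best order.

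Among 14 other IGF pathway genes, 4 were tested, 1 was called higher and 1 lower, and the median log2 fold change was -0.14. The IGF binding proteins moved apart. Igfbp4, an inhibitory binding protein, rose from 45.2 ± 4.09 to 104 ± 1.47 CPM (SD, n = 3; log2 fold change 1.24, adjusted p = 4.50e-09), while Igfbp6, which prefers IGF-2, was a minor transcript that fell from 0.983 ± 0.222 to 0.154 ± 0.0519 CPM (SD, n = 3; -2.59, adjusted p = 3.73e-04). Igfbp6, with 2 to 4 counts per shTrem2 library, passed the count filter only through shNC. Igf1r, the receptor of IGF-1, had no count in any of the 6 libraries, which allows up to 3 counts or 0.153 to 0.189 CPM per library.

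Hbegf, one of the EGF receptor ligands, fell in proportion the most of the tested members but from a low level. There were 39, 91 and 67 counts in shNC, or 2.46, 5.12 and 3.70 CPM, and 15, 8 and 10 counts in shTrem2, or 0.771, 0.413 and 0.509 CPM. Every shTrem2 library was below every shNC library, although the shNC values themselves differed by over 2-fold. The fitted log2 change was -2.69 (standard error 0.349, 95% interval -3.45 to -1.94, adjusted p = 1.87e-05 from edgeR). Hbegf passed the count filter through its shNC libraries, and a filter of 10 counts in every library removed it. Nearly all counts belonged to the coding transcript Hbegf-201, at 3.65 ± 1.24 and 0.530 ± 0.208 CPM (SD, n = 3).

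Areg, which encodes amphiregulin, had a single count, in shTrem2 replicate 2, and none elsewhere. It was not detected in either group at this depth, and no fold change is given. In the rest of the EGF family and its shedding machinery, 8 of 18 genes were tested and 2 were called, both lower, with a median log2 fold change of 0.02. The share called was 25.0%, against 21.8% called and 12.4% called lower over all tested genes. The 2 were the iRhoms, which guide Adam17 to the cell surface: Rhbdf2 fell from 129 ± 5.95 to 75.2 ± 1.83 CPM (log2 fold change -0.74, adjusted p = 5.06e-08) and Rhbdf1 from 18.1 ± 1.81 to 10.8 ± 0.344 CPM (-0.71, adjusted p = 5.00e-05; SD, n = 3). The sheddases themselves were higher by less than 1.5-fold, Adam17 by 0.22 and Adam10 by 0.25 on the log2 scale (adjusted p = 0.00102 and 0.00210 from edgeR). Egfr and Erbb4 had no counts.

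Hgf, the ligand of Met, had 0 counts in all 6 libraries and an FPKM of 0, so it was not detected, with the same limit of 3 counts per library. Met had 3 counts in shTrem2 replicate 1 and none in the others. Of 12 genes around HGF activation, 5 were too scarce to be tested. Of the other 7, 6 were called, all lower, and the median log2 fold change of the 7 was -1.60. The share called lower over all tested genes was 12.4%. Plau, the urokinase that activates plasminogen and can cleave pro-HGF, went from 232, 248 and 244 CPM to 36.4, 35.6 and 46.8 CPM (log2 fold change -2.57, adjusted p = 9.05e-11 from edgeR). The membrane proteases matriptase (St14) and hepsin (Hpn), activators of pro-HGF, fell by 1.60 and 2.39 on the log2 scale (adjusted p = 7.80e-10 and 6.62e-04), from 147 ± 11.2 to 47.6 ± 3.91 CPM and from 1.04 ± 0.181 to 0.188 ± 0.108 CPM (SD, n = 3). Hpn, with 2 to 6 counts per shTrem2 library, passed the count filter only through shNC.

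Grn was by far the most abundant of the members. It was at 819.6, 817 and 845 CPM in shNC and at 849.5, 885 and 733 CPM in shTrem2. The highest and the lowest library were both shTrem2, and the log2 fold change was 0.03 (95% interval -0.11 to 0.16, adjusted p = 0.740 from edgeR). It became -0.01 when libraries were scaled by size only and -0.03 without shTrem2 replicate 2. Of 15 genes for progranulin binding, processing and its lysosomal partners, 14 were in the count table and 11 were tested, with 1 called higher, 3 lower and a median of 0.03. Slpi, which shields progranulin from elastase, fell from 63.9 ± 4.20 to 3.61 ± 0.368 CPM (log2 fold change -4.11, adjusted p = 5.03e-12), and Epha2, a receptor kinase reported to bind progranulin, from 41.3 ± 7.44 to 2.34 ± 0.534 CPM (-4.10, adjusted p = 5.13e-10; SD, n = 3). The lysosomal protease Ctsl fell by 0.77 and the TNF receptor Tnfrsf1a rose by 0.62 on the log2 scale (adjusted p = 3.92e-08 and 6.12e-07). Sort1, the uptake receptor of progranulin, was at 28.8 ± 1.37 and 32.7 ± 1.99 CPM (SD, n = 3; 0.22, adjusted p = 0.0169), and this did not pass with DESeq2 (adjusted p = 0.0507), on FPKM (0.207 with a pseudocount of 1) or without shNC replicate 2 (0.0560), shNC replicate 3 (0.0553) or shTrem2 replicate 2 (0.0599).

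Ecm1 was modestly lower. It was at 36.7, 41.9 and 35.2 CPM in shNC and at 29.4, 27.4 and 29.3 CPM in shTrem2. The groups were separate, with a log2 fold change of -0.37 (standard error 0.0755, adjusted p = 9.13e-04 from edgeR), a 1.29-fold difference. On FPKM the groups overlapped, at 39.6, 54.0 and 34.7 in shNC and 37.4, 35.1 and 29.4 in shTrem2, and limma on log2(FPKM + 1) gave -0.31 (adjusted p = 0.163). Its 10 transcripts could not be matched to names, because another order rebuilt the FPKM as well or better.

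Ranked by FPKM, the factors spanned a wide range. In shNC, Grn led at 427 ± 6.05, followed by Vegfa at 43.1 ± 3.19, Ecm1 at 42.8 ± 10.03 and Vegfb at 41.5 ± 2.10, whose values overlapped and which are not ordered among themselves (SD, n = 3). Below them came Igf1 at 27.0 ± 4.34, Pdgfb at 20.1 ± 0.737, Pdgfa at 15.9 ± 2.06 and Hbegf at 1.81 ± 0.630, each separate from the next (SD, n = 3). In shTrem2, Grn at 429 ± 38.2 still led, and Vegfb at 39.9 ± 2.87, Vegfa at 36.2 ± 4.48 and Ecm1 at 34.0 ± 4.12 again overlapped (SD, n = 3). Pdgfa, at 12.5 ± 0.918, was now above Pdgfb at 8.28 ± 1.63 and Igf1 at 7.13 ± 0.938, which overlapped, and Hbegf was at 0.270 ± 0.0889 (SD, n = 3). Of all tested genes, 69.1% had a lower mean FPKM than Igf1 in shNC and 37.9% in shTrem2, and for Grn the share was 98.2% and 98.1%. These levels take in all transcripts of a gene, which matters most for Vegfa. Its coding transcripts alone were at 22.5 ± 0.273 FPKM in shNC and 27.2 ± 3.57 in shTrem2 (SD, n = 3). Those of Vegfb were at 41.0 ± 1.63 and 39.1 ± 2.52 (SD, n = 3), so on coding transcripts Vegfa was below Vegfb in both groups.

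Because Vegfa is a known hypoxia target, 19 hypoxia-induced and hypoxia-regulating genes were set beside it. Of these 17 were tested, with 3 called higher, 2 lower and a median log2 fold change of 0.26. The called genes went both ways. Bnip3, a mitophagy receptor, rose from 107 ± 8.29 to 164 ± 15.1 CPM (SD, n = 3; 0.65, adjusted p = 3.78e-06), and the collagen hydroxylase P4ha2 went from 5 counts in all to 76, a ratio of 13.5 (95% interval 5.52 to 42.6, counting error only), and passed the count filter only through shTrem2. Carbonic anhydrase Car9 fell from 8.88 ± 0.589 to 4.72 ± 0.787 CPM (SD, n = 3; -0.88, adjusted p = 2.60e-04). The vasodilator peptide gene Adm fell from 7.59 ± 2.20 to 4.52 ± 1.28 CPM (SD, n = 3; -0.71, adjusted p = 0.0197), a call lost without shNC replicate 1 (-0.50, adjusted p = 0.108) or without shTrem2 replicate 3 (-0.50, adjusted p = 0.0657).

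Of 21 other secreted repair factors of macrophages, 9 were tested, 4 were called, each of them lower, and the median log2 fold change was -0.12. Over all tested genes, 21.8% were called and 12.4% were called lower. The 4 were the cytokines Lif (-2.49, adjusted p = 5.68e-04) and Osm (-0.89, adjusted p = 8.82e-04), the stress factor Gdf15 (-2.15, adjusted p = 7.43e-04) and Pros1 (-0.93, adjusted p = 1.20e-07), which bridges apoptotic cells to TAM receptors. Lif and Gdf15 were scarce, at 1.01 ± 0.302 and 1.89 ± 0.296 CPM in shNC, and passed the count filter only through that group, whereas Pros1 was at 85.5 ± 1.10 CPM there and 43.9 ± 4.54 CPM in shTrem2 (SD, n = 3). Spp1, the gene of osteopontin and the most abundant of this list by count, was at 4810, 4614 and 4206 CPM in shNC and 3865, 3195 and 5152 CPM in shTrem2. The widest gap was within shTrem2, and the log2 fold change of -0.12 (adjusted p = 0.406 from edgeR) became -0.34 (adjusted p = 7.79e-04) without shTrem2 replicate 3 and 0.03 (adjusted p = 0.831) without shTrem2 replicate 2. Il10 had 2 counts in 1 library and none in the others.

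**Figure D4:**
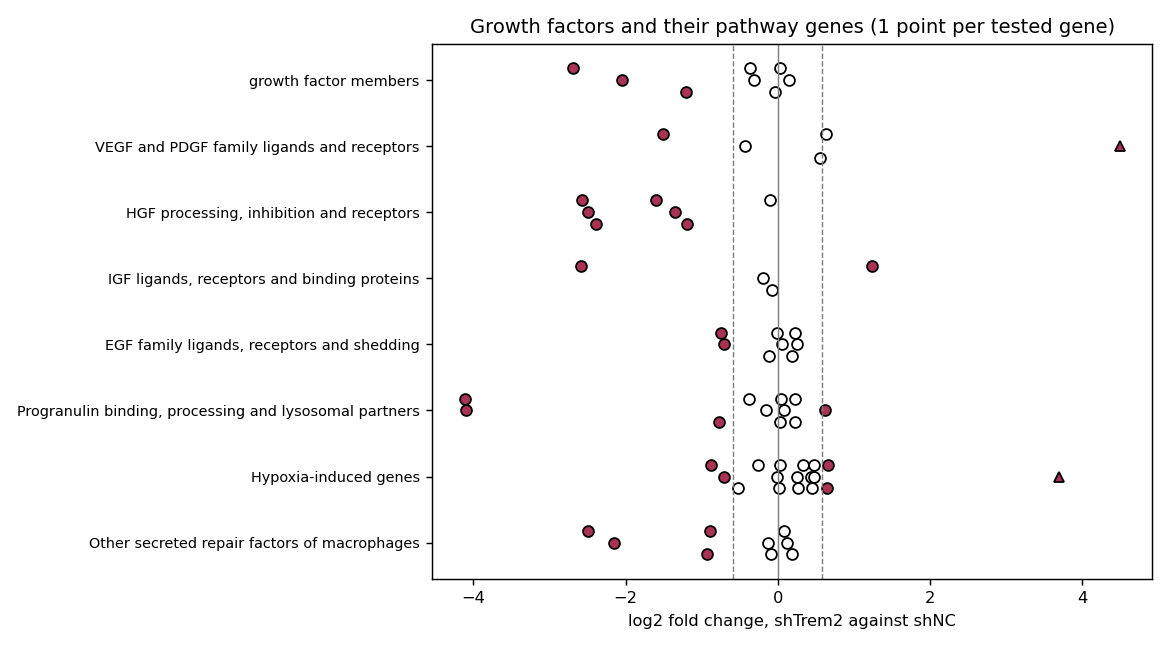
edgeR log2 fold change of each tested gene, shTrem2 against shNC, for the growth factors and 7 pathway lists; filled symbols were called, dashed lines mark a 1.5-fold change, and triangles are Vegfc and P4ha2, whose fitted values rest on 2 counts or fewer per shNC library. The HGF processing list has 6 called genes, all on the lower side.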

How the data were processed

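Poly(A)-selected, stranded RNA-seq libraries, 3 shNC and 3 shTrem2, were grouped by the shRNA in their labels. The submitters' processing notes name fastp, HISAT2, StringTie and GRCm39, and the counting tool is not given in the sources used here. The authors deposited estimated counts per transcript with gene symbols only, and of the nonzero values 81.6% were not whole within 0.005. The authors also deposited FPKM per gene, which followed count over effective length. Group means and comparison columns of the authors were not used.

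The estimated counts of all transcripts with 1 symbol were added up and rounded to whole numbers. Values without a symbol, 0.908% to 1.12% of a library, were left out. The main test was edgeR 4.0.16 in R 4.3.3 (TMM, filterByExpr by group, quasi-likelihood, Benjamini-Hochberg adjustment over 13528 genes), with calls at an adjusted p under 0.05 and a fold change over 1.5. The study gives these thresholds and names no test for the knockdown libraries, while its supplement names DESeq2 for bulk comparisons of injured and control groups. Alternatives used DESeq2 1.42.0, limma 3.58.1 on log2(FPKM + 1) and log2(FPKM + 0.1), limma-voom, other scalings and filters, thresholds, an effective-length offset and each library left out. A fold change on log2(FPKM + 1) understates changes of low genes. Scripts were tested on simulated data. A count of 0 allows up to 3 counts, for counting error only.

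The members and lists were chosen with earlier results of these data known. Named genes were all members, up to 4 called genes of largest change per pathway list, receptors and sheddases of the members, Il10, Spp1 and Trem2, with Aqp1 and Lyz2 named after their values were seen. A gene that this rule names is not reported here. Transcripts were matched to GENCODE M21 where the order rebuilt the FPKM within 2% and better than any other compared. For Vegfa, the orders compared did not include swaps between values. Matching failed for Grn and Ecm1 and was not possible for Hgf and Areg. Calls across lists are descriptions without a set test.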

Additional observations from a re-analysis of the deposited data

How the results depend on the processing

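The number of members called was 3, and with at least 10 counts in every library it was 2. Igf1, Pdgfb and Hbegf stayed below shNC and past the p criterion under every alternative run on them, except that Hbegf gave no value with at least 10 counts in every library. Vegfa turned negative with the effective-length offset (-0.23) and with limma on FPKM (-0.26 with a pseudocount of 0.1, -0.25 with 1), and passed the p criterion for coding transcripts alone (0.26, chosen after seeing the data). The fall of Ecm1 did not pass with the offset (-0.30) or limma on FPKM (-0.31 with either pseudocount). Grn became -0.0083 with library size only. Leaving out each library gave 0.084 to 0.25 for Vegfa, -0.081 to 0.012 for Vegfb, -0.39 to -0.25 for Pdgfa, -0.026 to 0.094 for Grn and -0.34 to 0.027 for Spp1, where Vegfa came to pass without shTrem2 replicate 3, Pdgfa without shNC replicate 2 ceased to, and Spp1 came to pass without shTrem2 replicate 3 and with no filter beyond 1 count. Over all alternatives the adjusted p ranged from 0.00359 to 0.0771 for Pdgfa, 1.28e-05 to 0.163 for Ecm1, 0.0110 to 0.224 for Sort1, 1.19e-04 to 0.108 for Adm and 7.79e-04 to 0.831 for Spp1.

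By construction, thresholds moved counts. Without a fold threshold there were 5 members, 7763 genes, 4 VEGF and PDGF, 4 EGF, 8 progranulin and 13 hypoxia genes called, and with a fold over 2 there were 1339 genes, 0 EGF, 2 progranulin, 1 hypoxia and 2 other secreted genes. With glmTreat against 1.5-fold there were 1515 genes, 1 EGF and 1 hypoxia gene. With at least 10 counts in every library there were 1 VEGF and PDGF, 1 IGF and 2 other secreted genes, and limma on log2(FPKM + 1) left 1 VEGF and PDGF gene. Ranking by CPM in place of FPKM kept 5 of 10 shNC ranks.

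Same-numbered replicates did not deviate together (r = 0.00618, -0.00441 and 0.00657), and differently numbered ones gave r from -0.0370 to 0.0328. The samples were therefore treated as unpaired. These values cannot show whether same-numbered cultures were handled together. With the replicate block, 2911 genes and 3 members were called, and Igf1 was at -2.04. Depth limits Hgf, Igf1r and Egfr, whose counts of 0 allow a level of up to 0.153 to 0.189 CPM per library. At least 10 counts in every library left no value for Hpn, Igfbp6, Lif, Gdf15, Vegfc and P4ha2 either.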

Other observations

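The 11 unnamed Grn transcript values in the count table, against 10 annotated transcripts, included 1 that differed widely between libraries of the same group. It was at 0, 10.3 and 0 CPM in shNC and at 4.96, 15.5 and 35.3 CPM in shTrem2. The largest Grn transcript held 98.0% of the gene's counts in shNC and 95.7% in shTrem2.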
